A study of Mus musculus with 15 samples.

Results

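The genes of retinoid storage and metabolism followed here on mouse microarrays are Rbp4, Stra6, Lrat, Adh7, Aldh1a1, Aldh1a2, Aldh1a3, Cyp26b1 and Rarb, chosen by gene name in the scanner files. These 9 of 37008 gene names are read by 14 of the 56605 probes. Total RNA of 15 samples, 3 in each of 5 groups, was labelled with Cy3 and hybridised to 1-colour Agilent arrays. Pancreatic stellate cells (PSC), the fibroblast-like cells of the pancreas, came from heterozygous mice (PSC HT) or wild-type mice (PSC WT) and had become activated over 2 weeks of culture. The cancer cells, of mouse pancreatic origin, had spent 24 h in medium conditioned by HT PSC (HT PSC medium), in medium conditioned by WT PSC (WT PSC medium), or in control medium (cancer control). The labels used here name neither the locus that is heterozygous nor the cancer line. They do not say either whether the 3 replicates are separate animals or cultures. The p-values therefore reflect the spread among these arrays alone, and that spread may be technical.

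Retinol travels in blood bound to RBP4, enters cells through the receptor STRA6, and is stored as esters made by lecithin retinol acyltransferase (LRAT). Alcohol and retinol dehydrogenases oxidise it reversibly to retinal, the ALDH1A enzymes oxidise retinal irreversibly to retinoic acid, and CYP26 enzymes break retinoic acid down. Retinoic acid acts through the nuclear receptors RAR and RXR, and quiescent stellate cells of liver and pancreas are known for retinyl ester droplets that they lose on activation.

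Rarb, the retinoic acid receptor beta, is itself a classical target of retinoic acid, through a pair of receptor half-sites near its start. The promoter window of Rarb is shown because among the member windows it alone held such a pair. It is the RefSeq window chr14:16575427-16575726 on the minus strand of GRCm38.p6, read 5′ to 3′, with both half-sites in capitals:

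Rarb: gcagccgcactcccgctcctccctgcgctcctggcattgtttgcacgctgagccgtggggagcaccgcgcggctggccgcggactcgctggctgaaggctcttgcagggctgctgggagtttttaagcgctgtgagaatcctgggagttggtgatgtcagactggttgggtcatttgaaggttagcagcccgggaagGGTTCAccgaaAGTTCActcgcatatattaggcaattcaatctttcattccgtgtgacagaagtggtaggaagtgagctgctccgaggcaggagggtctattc

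The pair, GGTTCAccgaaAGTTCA, lies at positions -53 to -37 from the annotated start. The search looked on both strands for 2 half-sites in the same orientation, each being the consensus AGGTCA, either half-site of the Rarb pair (GGTTCA or AGTTCA) or the variant GGGTCA, with 1, 2 or 5 bases between them. A pair spaced by 5 stood in 32 of 32851 RefSeq windows (0.0974%), and any of the 3 spacings in 193 (0.588%). Among the 13 windows of 8 members (Aldh1a3 had no entry), 1 held a pair. That window is the one of Rarb, whose match was fixed in advance, since the search included both its half-sites and its spacing. A match describes these letters and is not a binding site or a cause, and the arrays measured no binding.

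Levels are log2 of the processed signal minus the array's own 75th percentile, so 0 is the brightness at that percentile of the non-control spots. Each gene is read at its brightest probe over all arrays, and no level is set against that of another gene. Differences are log2 ± SE with n = 3 arrays per group, tested with limma across all genes and adjusted by the Benjamini-Hochberg method, and "passed" means an adjusted p under 0.05. Probe positions are those of the files, build mm9. No mm9 gene models were used here, so exons and UTRs are not given.

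The share of spots well above background was 54.3% to 63.8% per array, and 0 spots were saturated. All 12 markers of stellate cells and fibroblasts were well above background on every PSC array, and all 10 epithelial markers were on every cancer cell array. PSC HT 3 stood apart: its epithelial markers summed to 23.6 times the 75th percentile, whereas PSC HT 1 and 2 had 6.44 and 7.18 and the PSC WT arrays 13.9 to 14.8. The slope of the spike-in controls was 0.896 to 0.927 on PSC HT 2 and the PSC WT arrays, and 1.048 to 1.063 on the other 11 arrays. PSC WT and cancer control arrays thus lay on opposite sides of this split, so between them cell type and slope cannot be told apart. The arrays lay on 2 slides, each with arrays of every group. In bulk RNA, fewer cells of a type and less RNA per cell cannot be told apart.

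**Figure D1:**
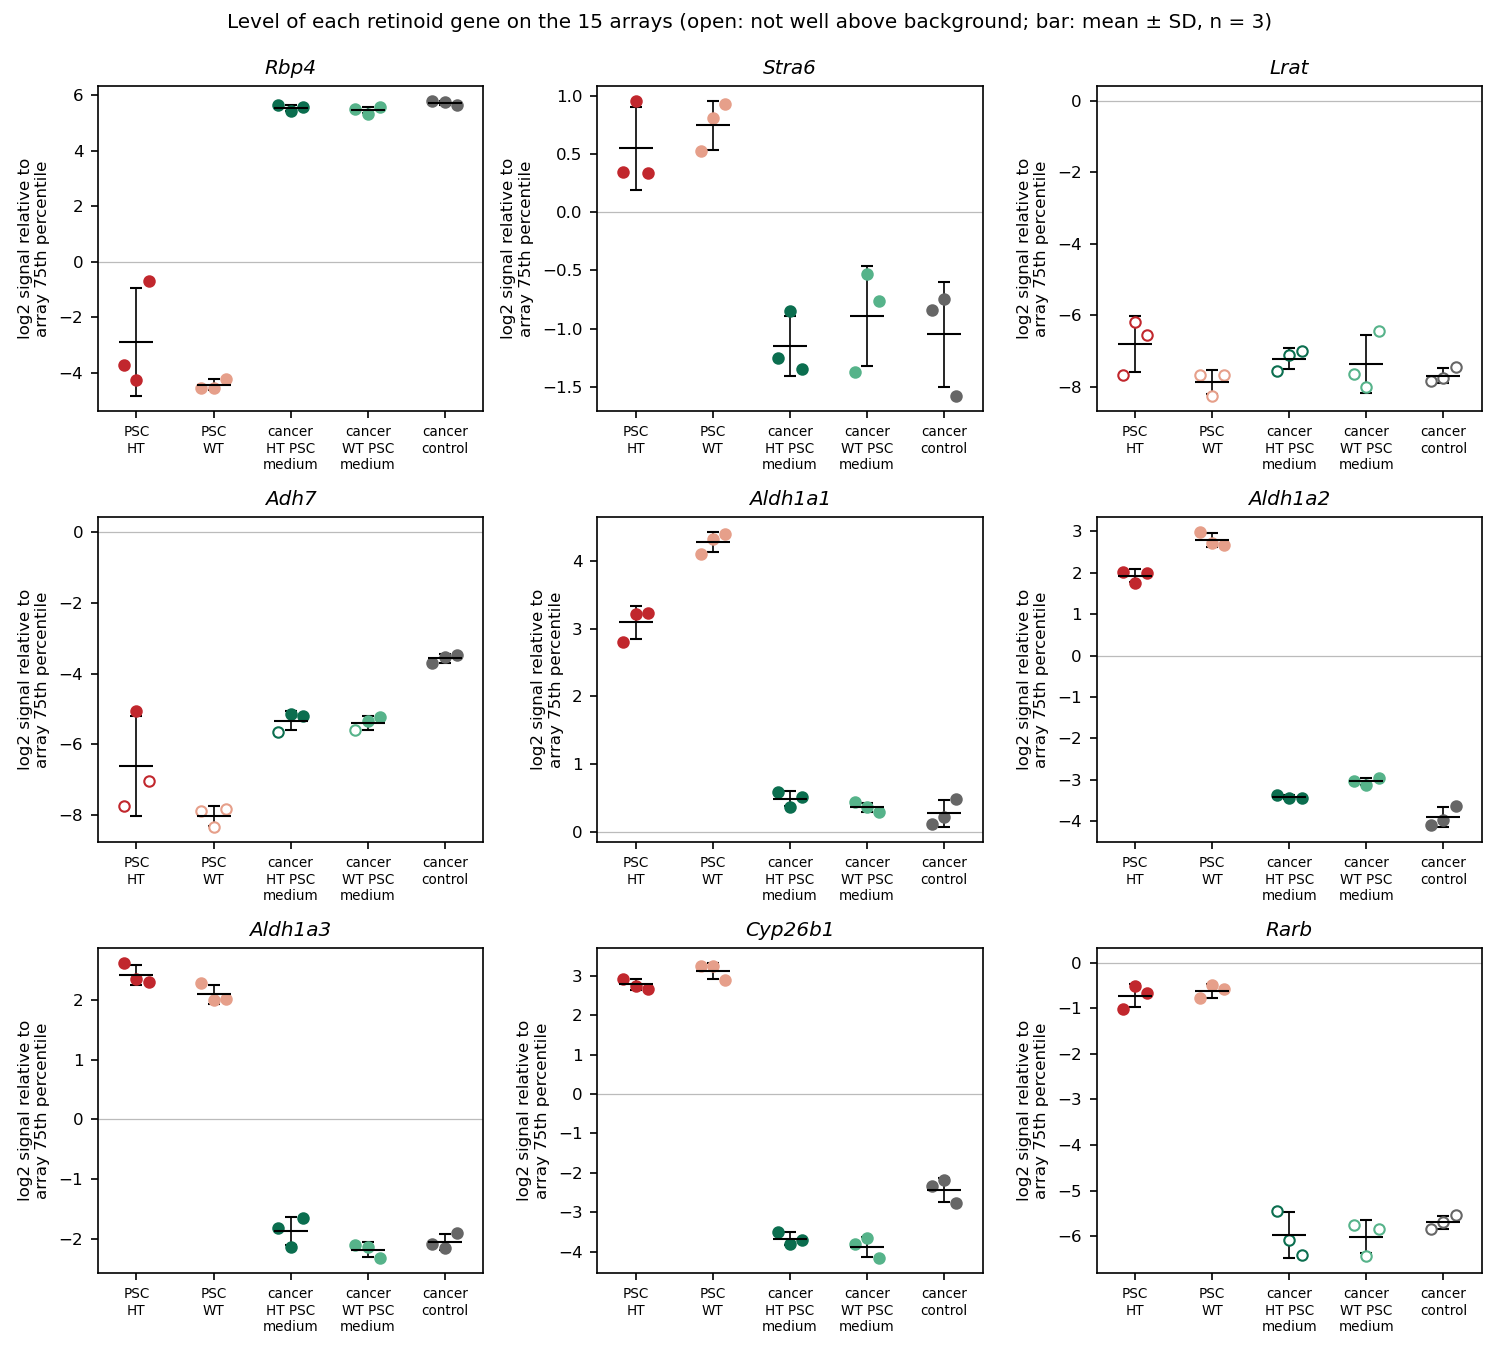
Level of each gene on the 15 arrays (log2 signal relative to the array's 75th percentile). Points are arrays, open where not well above background, and bars are mean ± SD with n = 3. Rarb was above background in PSC and Rbp4 was high in the cancer cells, while Lrat was not above background on any array and PSC HT 3 stood above the other PSC arrays for Rbp4.

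The first comparison set PSC WT against cancer control cells. In PSC WT the 3 retinal dehydrogenases, the retinoic acid hydroxylase Cyp26b1, the receptor Rarb and the retinol receptor Stra6 were higher, and the carrier Rbp4 and the alcohol dehydrogenase Adh7 were lower. All 8 members tested passed, 6 higher and 2 lower, where 71.4% of all 21928 genes tested passed (36.1% higher and 35.2% lower). Adh7 and Rarb entered this test only through the group in which they are high.

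Rbp4, the plasma carrier of retinol, is a secreted protein made mainly by liver (probe at chr19:38191129-38191188). It read -4.56, -4.56 and -4.22 on the PSC WT arrays and 5.79, 5.74 and 5.65 on the cancer control arrays. Every PSC WT array was far below every control array, and the probe was above background on all of them. The difference was -10.17 ± 0.12 (adjusted p = 1.3e-08), the widest of the 8.

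Stra6, the cell surface receptor that takes retinol from RBP4, was read at chr9:58000379-58000990. PSC WT read 0.53, 0.81 and 0.93, and the control cells read -0.84, -0.75 and -1.58. The groups did not overlap, and control array 3 was lowest. PSC WT exceeded the control cells by 1.81 ± 0.24 (3.5-fold, adjusted p = 0.000498).

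Lrat, the enzyme that esterifies retinol for storage, was read at chr3:82696805-82696864. It was not well above background on any of the 15 arrays, with readings of -8.26 to -6.18, and was not tested. At this signal over background, no level of Lrat was detectable in activated PSC of either genotype or in the cancer cells. That rests on 1 probe, and no array here shows that this probe can detect Lrat.

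Adh7, a class IV alcohol dehydrogenase of stomach and other epithelia that oxidises retinol, was read at chr3:137894495-137894554. It read -7.87, -8.33 and -7.83 in PSC WT, not well above background, and -3.71, -3.52 and -3.49 in the control cells, where every array was above background. Adh7 was at least 4.41-fold lower in PSC WT (measured means -8.01 and -3.57, a difference of -4.44, adjusted p = 6.77e-07). That bound holds for the processed signal only: with normexp background correction the difference was -1.17.

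Aldh1a1, a cytosolic retinal dehydrogenase that also oxidises other aldehydes, was read at chr19:20717764-20717823. Its readings were 4.10, 4.32 and 4.40 in PSC WT and 0.11, 0.21 and 0.49 in the control cells. Both cell types expressed it, at levels that did not overlap. The difference was 4 ± 0.14 (16.1-fold, adjusted p = 5.72e-07).

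Aldh1a2, the main retinal dehydrogenase of the embryo and of mesodermal tissues, was read at chr9:71143931-71143990. PSC WT arrays had 2.99, 2.73 and 2.66, and control arrays had -4.09, -3.97 and -3.63. No array of one group came near the other, and the gap was 6.69 ± 0.15 (103-fold, adjusted p = 9.69e-08).

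Aldh1a3, another retinal dehydrogenase, has 3 probes, the brightest at chr7:73535785-73535844. That probe read 2.28, 1.99 and 2.01 in PSC WT and -2.09, -2.16 and -1.91 in the control cells. It gave a difference of 4.14 ± 0.12 (17.7-fold, adjusted p = 2.71e-07). The second probe (chr7:73553907-73553966), dimmer but above background on all 15 arrays, had the same direction at 2.98 ± 0.12 (7.89-fold). A further probe (chr7:73544841-73544900) was not above background on any array. Size thus depended on the probe, and direction did not.

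Cyp26b1, a cytochrome P450 that hydroxylates retinoic acid and so removes it, was read at chr6:84521952-84522011. It had 3.26, 3.24 and 2.90 in PSC WT and -2.33, -2.19 and -2.76 in the control cells. The groups were separated on every array, by 5.56 ± 0.18 (47.2-fold, adjusted p = 4.54e-07).

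Rarb has 4 probes, the brightest at chr14:17263511-17263570. This probe read -0.78, -0.49 and -0.58 in PSC WT and -5.85 to -5.54 in the control cells, where 0 of 3 arrays were well above background. Rarb was at least 30.6-fold higher in PSC WT (measured means -0.62 and -5.70, a difference of 5.08, adjusted p = 1.18e-07). Under normexp the difference was 3.34 (adjusted p = 2.07e-09), less than this bound. A dimmer probe nearby (chr14:17263889-17263947) averaged -2.94 ± 0.14 in PSC WT (SD, n = 3), and among the 9 cancer cell arrays only control array 2 was above background, at -2.73 against -7.02 and -6.69 on the other control arrays. With that array, the difference at this probe was 2.54 ± 1.08 and did not pass (adjusted p = 0.073, over all probes). The other probes, chr14:17651424-17651483 and chr14:17380078-17380137, were not above background on any array.

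**Figure D2:**
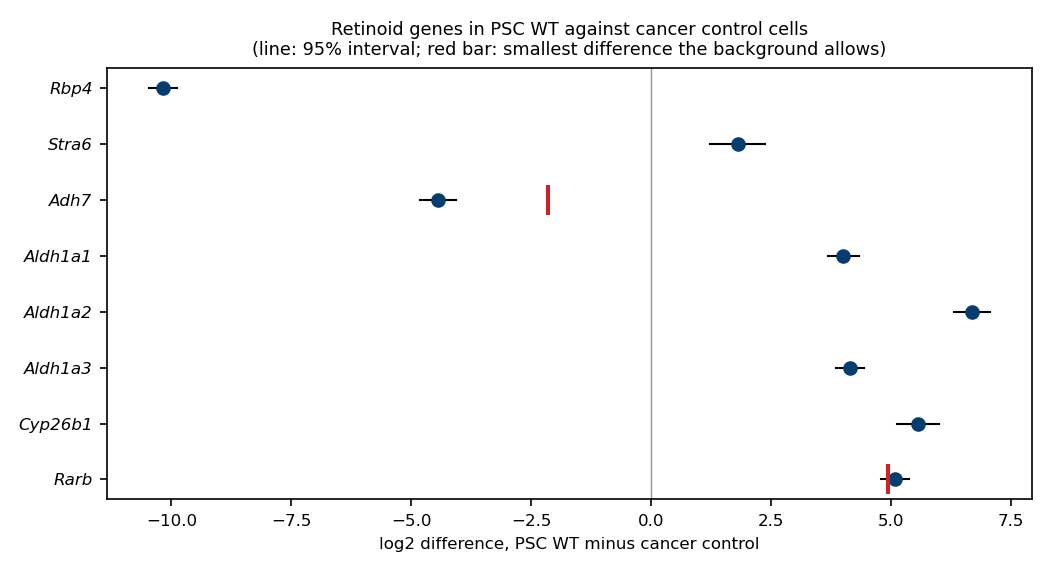
Difference between PSC WT and cancer control cells for the 8 members tested (log2, x axis). Points are limma estimates with 95% intervals. The red bars for Adh7 and Rarb are the smallest differences that the background of the dim group allows in the processed signal. Under normexp background correction both differences were smaller than these bars. Rbp4 and Adh7 lie below 0 and the other members above it.

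Other genes of the pathway, from lists written with earlier results of these data known, were counted in the same way. Of 53 on the array, 41 were tested, and 18 were higher and 11 lower in PSC WT. Passing was about as frequent over all genes tested, at 71.4% (36.1% higher and 35.2% lower). The median difference of the 41 was 0.24, beside 0.04 over all genes tested. The retinoic acid responsive genes (in other cells) had 7 of 9 tested higher and 1 lower, with a median of 5.05. The "at least" folds of list genes, here and below, hold for the processed signal only, as for Adh7 and Rarb. Rarres1 exceeded its level in the control cells at least 38.3-fold (adjusted p = 3.96e-07). Rarres2, which encodes chemerin, was at least 20.2-fold higher (adjusted p = 1.57e-06). The transcriptional repressor Hic1 was higher by 7.59 ± 0.13 (adjusted p = 3.52e-08).

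Transport and binding genes had 3 of 6 higher and 2 lower. Ttr, transthyretin, which carries the RBP4 complex in blood, was at least 23.6-fold lower in PSC WT (adjusted p = 2.34e-07). Rbp2, the cellular retinol-binding protein of the intestine, was at least 4.28-fold lower (adjusted p = 0.0021). Thus the carrier Rbp4 and its partner Ttr were both lower in PSC WT.

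Genes of oxidation and reduction had 4 of 16 higher and 6 lower. Rdh10, the retinol dehydrogenase that supplies retinal in the embryo, averaged 0.67 in PSC WT and 5.38 in the control cells, a difference of -4.72 ± 0.08 (adjusted p = 3.45e-08). Rdh7 was at least 1.39-fold lower (adjusted p = 0.00196). The Aldh1a genes and Rdh10, which act in consecutive steps, therefore differed in opposite directions between the cell types. This holds for Rdh10 and not for its whole list, whose 4 higher genes shared the direction of the Aldh1a genes. Esterification and hydrolysis genes had 1 of 5 higher and 2 lower, receptors 2 of 4 higher and 0 lower, and of the other 2 Cyp26 genes 1 was tested and was higher.

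The second comparison asked how PSC of the 2 genotypes differ. Aldh1a1 and Aldh1a2 fell in PSC HT, and the other 5 members tested did not pass. This is 2 of 7 members lower and 0 higher, where 7.73% of 20886 genes passed, 4.78% lower and 2.95% higher. Adh7 and Lrat were not tested, since neither was above background on all arrays of a genotype.

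Aldh1a1 read 2.80, 3.22 and 3.23 on the PSC HT arrays, against 4.10, 4.32 and 4.40 on the PSC WT arrays. Every HT array was below every WT array, and HT 1 was lowest. The difference was -1.19 ± 0.15, which is 2.28-fold lower in HT (adjusted p = 0.0073). It was -1.26 without PSC HT 3 (adjusted p = 0.0194), -1.09 within slide 1 and -1.14 within slide 2. With PSC HT 2 alone against the PSC WT arrays, which share the lower spike-in slope, it was -1.05 and did not pass (adjusted p = 0.0681).

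Aldh1a2 read 2.03, 1.76 and 2.00 in PSC HT, against 2.99, 2.73 and 2.66 in PSC WT. Again the genotypes did not overlap. Aldh1a2 fell by 0.86 on the log2 scale (SE 0.12, 1.82-fold lower in HT, adjusted p = 0.0107). The difference was -0.90 without PSC HT 3 (adjusted p = 0.035), -0.97 within slide 1, -0.93 within slide 2 and -1.03 for PSC HT 2 alone (adjusted p = 0.0812). Without the filter on dim probes it was the same and did not pass (adjusted p = 0.0674). Within a slide one genotype has 1 array, and neither gene passed there.

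Aldh1a3 had 2.62, 2.35 and 2.30 in PSC HT and 2.28, 1.99 and 2.01 in PSC WT. The lowest HT array lay just above the highest WT array, the opposite direction to the other 2 retinal dehydrogenases. At 0.33 ± 0.12 this did not pass (adjusted p = 0.183), and the second probe gave 0.32 ± 0.16 (adjusted p = 0.297, over all probes).

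Cyp26b1 had 2.93, 2.73 and 2.67 in PSC HT and 3.26, 3.24 and 2.90 in PSC WT. HT 1 overlapped WT 3, and the difference of -0.35 ± 0.13 did not pass (adjusted p = 0.168). Rarb read -1.01, -0.51 and -0.66 in PSC HT and -0.78, -0.49 and -0.58 in PSC WT, with overlapping groups and a difference of -0.10 ± 0.15 (95% interval -0.46 to 0.25, adjusted p = 0.76). The dimmer Rarb probe gave -0.06 ± 0.16. Neither the receptor nor the breakdown enzyme of retinoic acid was thus shown to differ with genotype.

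Stra6 read 0.35, 0.96 and 0.34 in PSC HT and 0.53, 0.81 and 0.93 in PSC WT. HT 2 was the highest of the 6 arrays, and the difference was -0.20 ± 0.20 (95% interval -0.68 to 0.28, adjusted p = 0.631).

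Rbp4 read -3.73, -4.28 and -0.68 in PSC HT and -4.56, -4.56 and -4.22 in PSC WT. PSC HT 3 set this spread: it is the array on which epithelial markers, high in the cancer cells, were also highest. The difference was 1.54 ± 0.90 (adjusted p = 0.388) with that array and 0.43 (adjusted p = 0.338) without it. A link between Rbp4 and the epithelial markers was not tested. Adh7 was above background on PSC HT 2 alone, at -5.05. PSC HT 1 and 3 had -7.75 and -7.03, below background, and PSC WT had -8.33 to -7.83.

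**Figure D3:**
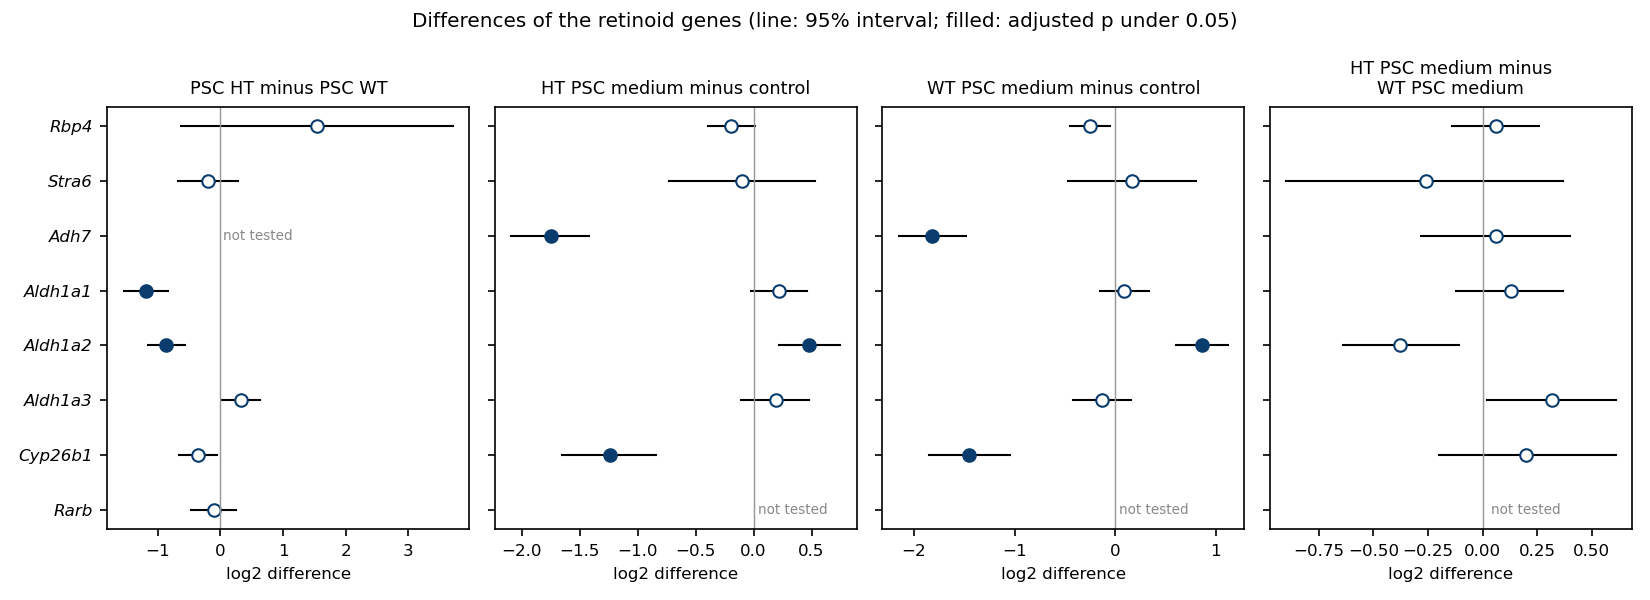
Differences of the members in 4 comparisons (log2, x axis, with a scale of its own in each panel). Points are limma estimates, filled where the adjusted p is under 0.05, and lines are 95% intervals. Aldh1a1 and Aldh1a2 are lower in PSC HT; Adh7 and Cyp26b1 are lower and Aldh1a2 higher in both PSC media, and no member passed between the media.

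Markers of other cell types moved with genotype in the same arrays. The 7 mesothelial markers on the array, summed as linear signal over the 75th percentile, were 10.7, 14 and 17.5 in PSC HT, against 39.7, 49.5 and 47.5 in PSC WT. Of these, 6 of 7 fell, among them the mesothelial transcription factor Wt1 (-1.16 ± 0.08, adjusted p = 0.000963), and Msln had -1.29 ± 0.56 (adjusted p = 0.247). This summed marker signal, like that of Aldh1a1 and Aldh1a2, was lower on every HT array than on every WT array.

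The 8 endothelial markers summed to 0.335, 0.322 and 0.277 in PSC HT and 1.34, 1.20 and 1.18 in PSC WT, with 4 of 5 tested lower and 0 higher. The 6 Schwann cell markers summed to 1.49, 1.82 and 1.92 in PSC HT and 4.13, 5.23 and 4.56 in PSC WT, with 2 of 5 tested lower and 1 higher. Macrophage markers went the other way, at 154, 63.2 and 63.1 in PSC HT and 26.2, 15.3 and 14 in PSC WT, with 8 of 9 tested higher and 0 lower. The 5 adipocyte markers summed to 2.14 to 2.27 in PSC HT and 1.15 to 1.93 in PSC WT, with 1 of 3 tested higher (Cfd, the protease adipsin) and 0 lower. The 5 acinar markers summed to 2.77 to 3.44 in PSC HT and 2.40 to 2.63 in PSC WT, and 0 of 2 tested passed. The 12 stellate cell and fibroblast markers summed to 1060 to 1110 in PSC HT and 881 to 1210 in PSC WT, with 1 higher (Postn, a matricellular protein) and 0 lower. The part of these cell types in the Aldh1a1 and Aldh1a2 differences was not tested.

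**Figure D4:**
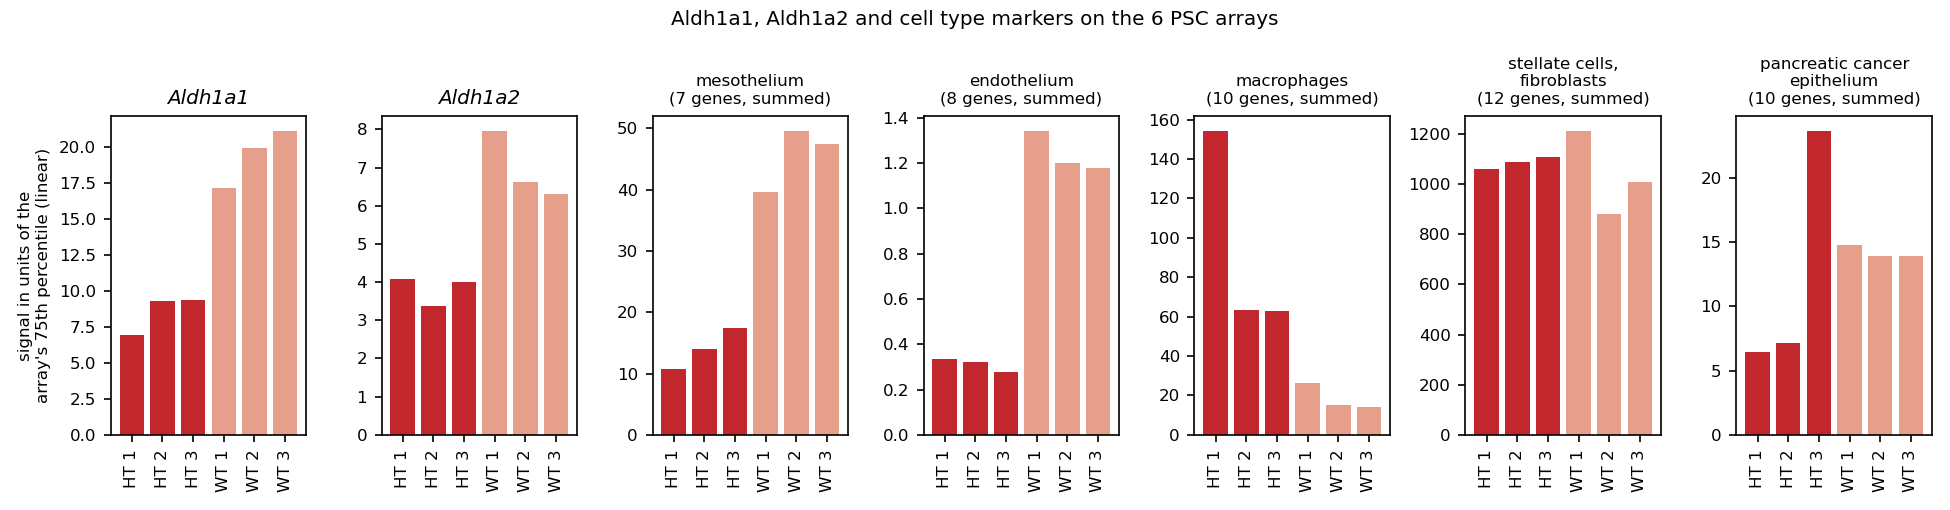
Linear signal, in units of the array's 75th percentile, of Aldh1a1 and Aldh1a2 and the summed signal of 5 marker lists on the 6 PSC arrays (bars, 1 per array, each panel with its own scale from 0). Aldh1a1, Aldh1a2, mesothelial and endothelial signals are lower on every PSC HT array, macrophage signals are higher, and stellate cell markers overlap. The epithelial sum is highest on PSC HT 3, at 23.6.

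Of the other pathway genes, 38 were tested between the genotypes, and 4 rose and 3 fell in PSC HT. Over all genes tested, 2.95% rose and 4.78% fell. The median was -0.03 for the pathway genes, beside 0 over all genes. The retinol and retinal steps upstream of ALDH1A held 2 of the rises: Rdh11, a retinal reductase, averaged 1.78 in PSC HT and 1.25 in PSC WT (0.54 ± 0.08, adjusted p = 0.0133), and Rdh10 averaged 1.15 and 0.67 in the same order (0.49 ± 0.10, adjusted p = 0.039). The other 13 tested genes of oxidation and reduction did not pass. None of the tested genes for transport and binding (4), esterification and hydrolysis (5), receptors (4) or CYP26 breakdown (1) passed.

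Retinoic acid responsive genes were mixed, with 2 of 9 higher and 3 lower (median 0.06). Rarres2 rose by 1.04 ± 0.16 (adjusted p = 0.0141) and the transglutaminase Tgm2 by 0.49 ± 0.08 (adjusted p = 0.0163). The orphan nuclear receptor Nr2f1 fell by 0.78 (SE 0.09, adjusted p = 0.00465), the homeobox gene Meis2 by 0.42 (SE 0.07, adjusted p = 0.0236) and Rarres1 by 0.42 (SE 0.08, adjusted p = 0.0264). The list therefore had no common direction.

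The third question was what PSC medium changes in cancer cells. In both media Adh7 and Cyp26b1 fell and Aldh1a2 rose, and the other 4 tested members did not pass. With HT PSC medium this is 3 of 7 members, 2 lower and 1 higher, where 5.47% of 19687 genes passed (2.5% lower and 2.97% higher). With WT PSC medium it is also 3 of 7, 2 lower and 1 higher, where 5.95% passed (3.15% lower and 2.8% higher). Adh7, counted in both, entered this test only through control medium, where it is high. The 2 comparisons share the control arrays, so they are not independent of each other.

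Adh7 read -5.64, -5.14 and -5.20 in HT PSC medium, -5.59, -5.35 and -5.23 in WT PSC medium and -3.71, -3.52 and -3.49 in control medium. Every array in PSC medium was below every control array, and with each medium array 1 was not above background, so the folds rest in part on readings at background. The difference was -1.75 ± 0.15 with HT PSC medium (3.37-fold lower, adjusted p = 0.000807) and -1.82 ± 0.15 with WT PSC medium (3.52-fold lower, adjusted p = 0.000415). With normexp background correction these were -0.84 and -0.83, both past the threshold. When all 15 arrays shared 1 fit, the values were the same but did not pass (adjusted p = 0.0773 and 0.0658).

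Cyp26b1 read -3.50, -3.81 and -3.71 in HT PSC medium, -3.81, -3.65 and -4.16 in WT PSC medium and -2.33, -2.19 and -2.76 in control medium. The controls stood above all 6 arrays in PSC medium, and every array was above background. Cyp26b1 fell by 1.24 with HT PSC medium (SE 0.18, 2.37-fold lower, adjusted p = 0.00646) and by 1.45 with WT PSC medium (SE 0.18, 2.73-fold lower, adjusted p = 0.00264). Under normexp the differences were -0.83 and -0.91, again past the threshold.

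Aldh1a2 read -3.36, -3.44 and -3.44 in HT PSC medium, -3.04, -3.12 and -2.95 in WT PSC medium and -4.09, -3.97 and -3.63 in control medium. The 3 groups did not overlap, with WT PSC medium highest. With HT PSC medium the difference was 0.48 ± 0.11 (1.40-fold, adjusted p = 0.0489), a call that 16 of 17 alternatives lost, with 0.23 under normexp (adjusted p = 0.142). With WT PSC medium it was 0.86 ± 0.11 (1.81-fold, adjusted p = 0.00404), and 0.52 under normexp, past the threshold. In these cells Aldh1a2 stayed far below its PSC level under every medium.

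Within slides the directions of these 3 genes held, without passing. Adh7 had -1.82 and -1.62 within slides 1 and 2 with HT PSC medium, and -1.99 and -1.77 with WT PSC medium. Cyp26b1 had -1.06 and -1.62 with HT PSC medium, and -1.26 and -1.72 with WT PSC medium. Aldh1a2 had 0.46 and 0.53 with HT PSC medium, and 0.82 and 0.94 with WT PSC medium.

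The other members tested in cancer cells did not pass with either medium. Rbp4 read 5.64, 5.42 and 5.56 in HT PSC medium, 5.51, 5.34 and 5.57 in WT PSC medium and 5.79, 5.74 and 5.65 in control medium. Both media lay below the same control arrays on every array, but the differences of -0.19 ± 0.09 (adjusted p = 0.279) and -0.25 ± 0.09 (adjusted p = 0.147) did not pass. Aldh1a1 read 0.37 to 0.58 in HT PSC medium, 0.29 to 0.44 in WT PSC medium and 0.11 to 0.49 in control medium, with differences of 0.22 ± 0.11 (adjusted p = 0.306) and 0.09 ± 0.11 (adjusted p = 0.67). Aldh1a3 read -2.13 to -1.65, -2.32 to -2.10 and -2.16 to -1.91 in the same order, and its differences of 0.19 ± 0.13 and -0.13 ± 0.13 did not pass. Stra6 read -1.35 to -0.85 in HT PSC medium, -1.37 to -0.53 in WT PSC medium and -1.58 to -0.75 in control medium, with overlapping groups and differences of -0.10 ± 0.28 and 0.17 ± 0.28. Rarb and Lrat were not above background in any of the 9 arrays at the probes used, and were not tested.

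Setting HT PSC medium against WT PSC medium asks whether PSC genotype alters the effect. Limma called 0 of 7 members and 0% of all 19687 genes, where 960 genes had an unadjusted p under 0.05. Aldh1a2 was lower in HT PSC medium on every array, with a difference of -0.38 ± 0.11 (95% interval -0.64 to -0.11, unadjusted p = 0.0107, adjusted p = 0.923). The interval for Adh7 was -0.28 to 0.40, that for Cyp26b1 -0.20 to 0.61 and that for Aldh1a3 0.02 to 0.61. For Rbp4 it was -0.14 to 0.26, for Stra6 -0.9 to 0.37 and for Aldh1a1 -0.12 to 0.37. Rarb and Lrat were not tested. These adjusted p-values do not show that the media act alike.

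Cancer epithelial markers summed to 653 to 782 in HT PSC medium, 730 to 760 in WT PSC medium and 652 to 734 in control medium. Of these 10, 2 passed as higher in both media: the tight junction gene Cldn4 (0.95 and 1.03 with HT and WT PSC medium) and the keratin Krt7 (0.29 and 0.39 in the same order). The stellate cell and fibroblast markers summed to 93.4 to 104, 90.8 to 98.5 and 87.5 to 92.6 in the same order, and 0 of the 3 tested passed with either medium. The endothelial list summed to at most 0.216 in any cancer cell group. The macrophage sums were 15.7 to 17.5, 15 to 16.9 and 14.7 to 15.5, with 2 of 4 tested higher in each medium. These 4 (Csf1r, Cd68, Cd14 and Mrc1) were above background on every cancer cell array. Adgre1, Lyz2, Fcgr1, Msr1, Ms4a7 and C5ar1 were above background on none. The part of these other markers in the Aldh1a2 rise was not tested.

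Of the other pathway genes, 37 were tested in the cancer cells. With HT PSC medium 1 rose and 4 fell (median -0.06, beside 0.01 over all genes), and with WT PSC medium 1 rose and 5 fell (median -0.01, beside 0.03). Over all genes tested, 2.97% rose and 2.5% fell with HT PSC medium, and 2.8% rose and 3.15% fell with WT PSC medium. Ttr, the partner of Rbp4, averaged -2.69 in HT PSC medium, -2.72 in WT PSC medium and -1.15 in control medium. Its differences were -1.54 ± 0.13 (adjusted p = 0.000819) and -1.57 ± 0.13 (adjusted p = 0.000457).

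Dhrs3, a retinal reductase that retinoic acid induces in many cells, had differences of -0.51 ± 0.09 with HT PSC medium (adjusted p = 0.0135) and -0.67 ± 0.09 with WT PSC medium (adjusted p = 0.00316). Meis2 had -0.56 ± 0.05 (adjusted p = 0.00123) and -0.50 ± 0.05 (adjusted p = 0.00144) in the same order. Rdh11 rose, by 0.36 ± 0.06 (adjusted p = 0.016) and 0.38 ± 0.06 (adjusted p = 0.0103). Rdh7, not above background in either PSC medium, was at least 1.15-fold lower with HT PSC medium (adjusted p = 0.00246) and at least 1.24-fold lower with WT PSC medium (adjusted p = 0.0391). Meis2 was the 1 of 7 tested retinoic acid responsive genes to pass with either medium, and 0 of 4 receptors passed.

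**Figure D5:**
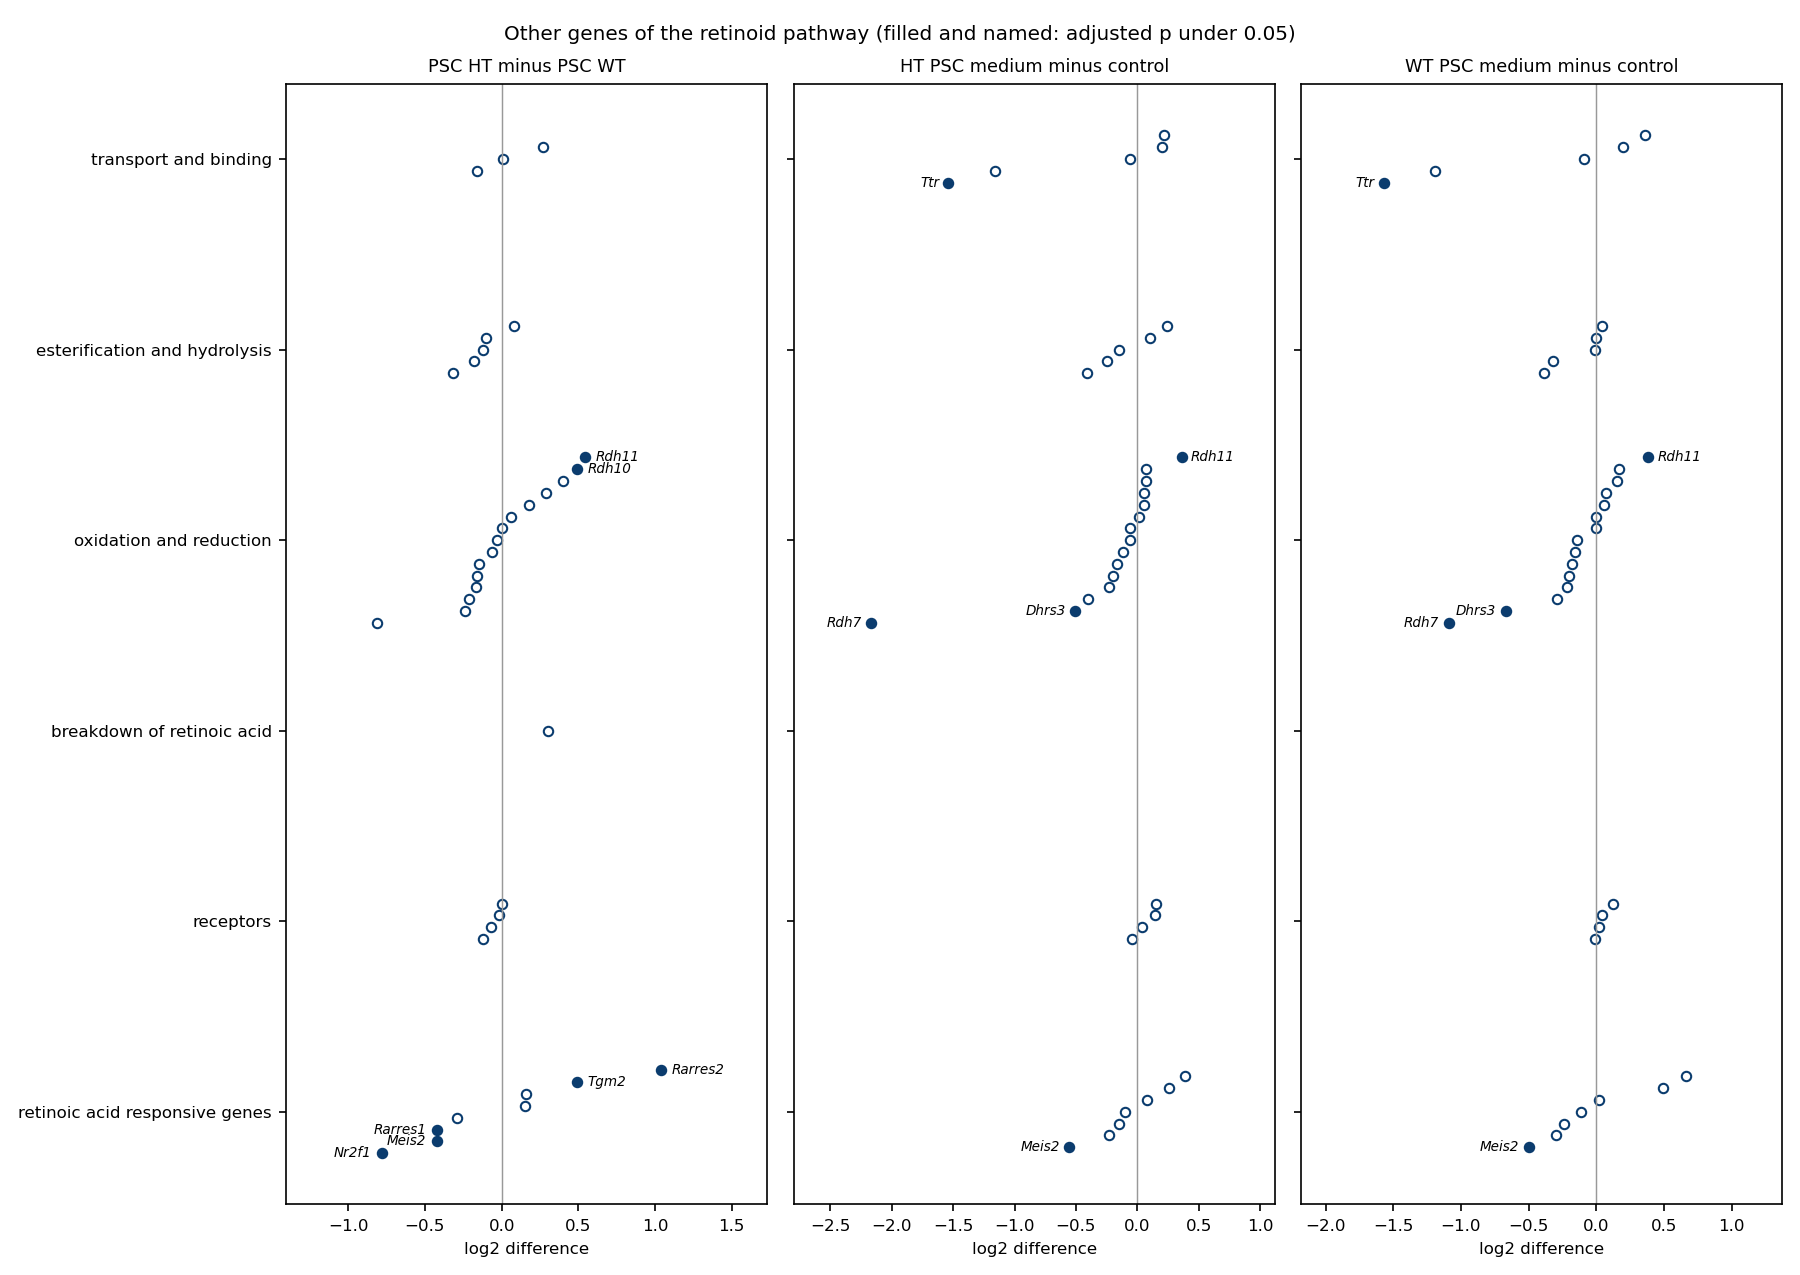
Differences of the other pathway genes reported here (log2, x axis, with a scale of its own in each panel), grouped by role. Points are limma estimates, filled and named where the adjusted p is under 0.05. Rdh11 is higher in all 3 panels, while Ttr, Dhrs3, Rdh7 and Meis2 are lower in both media; positions of Rdh7 are readings at the background of the media.

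The level profiles over the 15 arrays, which hold 2 cell types, were compared with all tested genes by Pearson correlation, as a description. Nearly all the spread in them is the difference between PSC and cancer cells, so many genes come close. The nearest to Aldh1a1 were Ppp1r9a and Tmem108 (r = 0.997 each), to Aldh1a2 Stk39 and Csrnp1 (0.997 each), and to Aldh1a3 Kctd15 and Egr2 (0.998 each). Those nearest to Cyp26b1 were Bcl9l and Ephx1 (0.998 each), to Rarb Kcp and Duxbl2 (0.997 each), to Stra6 Akap7 (0.994) and Pik3ca (0.992), and to Rbp4 Akr1c19 and Eepd1 (0.999 each). Adh7 came nearest to Ugt2a3 (0.951) and Spdef (0.936).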

How the data were processed

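Gene expression was measured on 1-colour Agilent arrays of 15 samples. Per the file headers, the deposited intensity of each spot was extracted with Feature Extraction 10.7.3.1, background subtracted and not scaled between arrays. Per the labels' protocols, Cy3 was incorporated into double-stranded cDNA. How the log2 values of the deposited series matrix were made is not given in the sources used here. Its columns have medians of 6.95 (PSC) and 6.9 (cancer cells), its scaling is unknown, and it served as an alternative inside each cell type.

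Here log2 of the processed signal was taken minus each array's 75th percentile (913 to 1449 in signal units), spots of a probe were averaged, and control spots were left out. Gene names were updated through RefSeq. A gene entered a test if some group of the fit had its brightest probe well above background on each array. "At least N-fold" compares the bright group's mean with, per array of the dim group, the higher of that array's floor (its lowest signal among probes well above background) and the probe's own reading. Such a bound holds for the processed signal only. Limma 3.58.1 (R 4.3.3) fitted the 6 PSC arrays, the 9 cancer cell arrays and, for the cell types, PSC WT with cancer control, each apart from the others. P-values were adjusted over all genes tested at a threshold of 0.05. The procedure was tested on simulated data. With 3 arrays per group, their number limits the precision.

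The members and lists were chosen with earlier results of these data known. All 9 members are named in each comparison, as are, from the pathway lists, at most 4 genes with the largest rises and 4 with the largest falls among those that passed, and the 2 genes most correlated with each member. Results of a few list genes are counted but not reported singly here, and the plot of pathway genes leaves them out. Samples of WT PSC medium and cancer control with the same number deviated together (correlations of 0.14, 0.21 and 0.20), which meets the rule for pairing used here, although the labels name no shared culture. Of these pairs, numbers 1 and 2 share a slide and number 3 does not. The other comparisons did not meet this rule, with single correlations of -0.17 to 0.23. Alternatives changed background correction (normexp, offset 50), scaling, filter, probe choice, blocks, the arrays in the fit and the variance model.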

Additional observations from a re-analysis of the deposited data

How the results depend on the processing

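Calls were recomputed under 16 to 18 alternatives per member and comparison. Between the genotypes the 2 calls became 1 without the filter on dim probes (Aldh1a2 was lost), 0 within slide 1, 0 within slide 2, and 1 with PSC HT 2 alone, an alternative chosen after seeing the data, where the 1 call is Adh7 entering as higher. Within a slide a group can have 1 array, assumed to vary like the other groups of its fit. In the cancer cells the 3 calls of each medium became 0 within either slide, and those of HT PSC medium became 1 when all 15 arrays shared 1 fit. Without the filter, pathway calls went to 1 for the genotypes, beside 7 with it, to 3 with HT PSC medium, beside 5, and to 3 with WT PSC medium, beside 6. Leaving out each array in turn gave 2 to 3 calls with HT PSC medium and otherwise the same numbers each time: 2 between genotypes, 3 with WT PSC medium, 0 between media and 8 between cell types. The replicate block gave 2 calls for genotypes, 2 for HT PSC medium, 3 for WT PSC medium, 0 between media and 8 between cell types, and changed among these members the call of Aldh1a2 with HT PSC medium alone (adjusted p = 0.0592).

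Directions turned only in uncalled values. For Stra6 the genotype difference was 0.09 within slide 2 and 0.21 with PSC HT 2 alone. Its HT PSC medium difference ran from -0.36 to 0.05 on leaving out 1 array, with 0.01 and 0.05 without control 1 and 2 and 0 without HT PSC medium 3. With WT PSC medium Stra6 had -0.01 with a slide block, -0.17 within slide 1, -0.10 without control 3, -0.01 without WT PSC medium 2 and up to 0.41 without another array, and between media 0.07 within slide 1. Rarb between genotypes was 0.03 within slide 2, 0.04 (without PSC HT 1) to -0.21 on leaving out 1 array, and 0.11 with PSC HT 2 alone. Between media Rbp4 was -0.04 within slide 2 and -0.01 (without WT PSC medium 2) to 0.12 on leaving out 1 array, and Adh7 was -0.01 under normexp and -0.04 (without WT PSC medium 1) to 0.22 on leaving out 1 array, with -0.03 without HT PSC medium 2. The cause of these changes was not tested.

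Quantile normalization moved the median difference between cell types to -0.07, beside 0.04. Under normexp, the Adh7 difference between PSC WT and cancer control was -1.17, beside -4.44, and that of Rarb 3.34, beside 5.08. Low signal over background limits Lrat, Adh7 and, in the cancer cells, Rarb.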
